A study of Mus musculus with 6 samples.

Results

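The genes described here encode the machinery that carries proteins into mitochondria and the SLC25 family of metabolite carriers, and they were taken from a table of FPKM (fragments scaled by transcript length and by the mapped total of the library) by their symbols. Symbols that begin with Timm or Tomm gave 24 import genes (15 Timm and 9 Tomm), and symbols that begin with Slc25a gave 35 carrier genes. Together they were 59 of the 11175 genes listed. All 59 had a mean of at least 1 FPKM over the 6 libraries and were therefore compared between the groups, among 10887 genes in all. The symbol does not always match the heading. Tomm34 encodes a cochaperone of the cytosol, Timmdc1 an assembly factor of respiratory complex I, Slc25a17 a carrier of the peroxisome and Slc25a46 an outer membrane protein. These were kept because the rule took them.

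Nearly all mitochondrial proteins are encoded in the nucleus, made in the cytosol and imported. Precursors enter through the TOM complex of the outer membrane, after which the TIM23 complex threads those with a presequence into the matrix and the TIM22 complex inserts carrier proteins into the inner membrane, helped by small TIM chaperones that escort them across the space between the membranes. The SLC25 carriers, themselves clients of the TIM22 route, exchange nucleotides, phosphate, organic acids, amino acids and cofactors across the inner membrane, and activated T cells enlarge their mitochondria while they grow and divide.

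RNA came from CD8+ T cells of the spleen of wild-type mice. In the first group (DOPAC, 3 libraries) the cells were stimulated for 48 h with antibodies to CD3 and CD28 together with DOPAC, 3,4-dihydroxyphenylacetic acid, a breakdown product of dopamine. The cells of the second group (Control, 3 libraries) had the same stimulation without DOPAC, so activation is common to both. The labels used here give neither a dose of DOPAC nor the strain, sex or age of the mice, and they do not say whether replicates were separate animals or cultures. What the p-values weigh is therefore the spread from library to library, possibly technical. Reads of 11 members (5 import genes, 6 carriers) are uncertain because another gene holds a near-identical stretch, and exons of 22 members (11 and 11) overlap those of another gene, which libraries without strand cannot separate. The comparison asks which transcripts differ when activated CD8+ T cells are exposed to DOPAC.

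The 6 libraries each summed to between 283818 and 316035 FPKM, and their depth in reads is unknown. All 11 listed markers of CD8+ T cells were found, with Cd8a, a chain of the CD8 coreceptor, at 178 to 192 FPKM in the DOPAC libraries and 153 to 202 FPKM in the Control libraries. Of the markers of other cells, 3 of 10 for macrophages, 3 of 5 for fibroblasts, 2 of 6 for erythroid cells, 2 of 6 for B cells, 0 of 4 for CD4+ T cells and 0 of 5 for dendritic cells were listed. Summed macrophage markers were 4.77 to 13.0 FPKM with DOPAC and 15.4 to 35.2 FPKM in the Control libraries. The fibroblast markers summed to 0.330 to 16.0 FPKM with DOPAC and 25.7 to 27.9 FPKM in the Control libraries. The B cell markers summed to 127 to 155 FPKM with DOPAC and 145 to 156 FPKM in the Control libraries. Erythroid markers summed to 0.280 to 3.02 FPKM with DOPAC and 2.72 to 10.4 FPKM in the Control libraries. Their part in the results below was not tested, and in bulk RNA fewer cells of a type and less RNA per cell cannot be told apart. Control replicate 1 stood apart, with correlations of 0.899 to 0.917 to the other 5 libraries (Pearson's r across genes of log2(FPKM + 1)) where those 5 gave 0.974 to 0.992 among themselves. Each fold change printed is therefore also given without it where that moved the value by over 1.5 times or turned its sign.

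No import gene and no carrier gene was called different between DOPAC and Control. In limma's moderated test on log2(FPKM + 1), with Benjamini-Hochberg adjustment across the whole table and a threshold of 0.05, 0 of the 24 import genes and 0 of the 35 carrier genes passed, where the share over all genes was 0.0%. Without Control replicate 1 the members called were again 0, against 0.0184% of all genes. With all 6 libraries the lowest adjusted p among the members was 0.801, which was also the lowest of all genes. At an unadjusted p under 0.05 the members again numbered 0, against 4.19% of all genes (2.73% higher and 1.46% lower with DOPAC). Under other settings of the same test up to 6 members had such a p. They were 6 with the length trend removed (10.7% of all genes), 3 with quantile normalization (6.11%), 3 with equal library medians (6.3%), 3 with array weights (8.34%), 1 with the replicate block (4.46%), 3 without Control replicate 1 (14.5%) and 1 without Control replicate 2 (5.99%). The authors' deposited table held 0 of the 59 members with an adjusted p under 0.05, as it held 0 of all 11175 genes. A missed threshold does not show equal expression, so the intervals of the differences are given with the values.

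The import genes had mostly negative fold changes, while the carriers' balance was that of the whole table, and the medians of both moved when Control replicate 1 was left out. Of the import genes 6 had a positive and 18 a negative log2 fold change (DOPAC minus Control), with a median of -0.081. Of the carriers 22 were positive and 13 negative, with a median of 0.052, a sign that turned with equal library medians (-0.0062), after removal of the length trend (-0.050) and on leaving out Control replicate 1. All genes tested had a median of 0.066, with 62.1% positive and 37.9% negative. Without Control replicate 1 the medians were -0.022 for import genes (9 positive, 15 negative) and -0.033 for carriers (16 positive, 19 negative), beside -0.011 for all genes (47.3% positive, 52.7% negative).

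**Figure D1:**
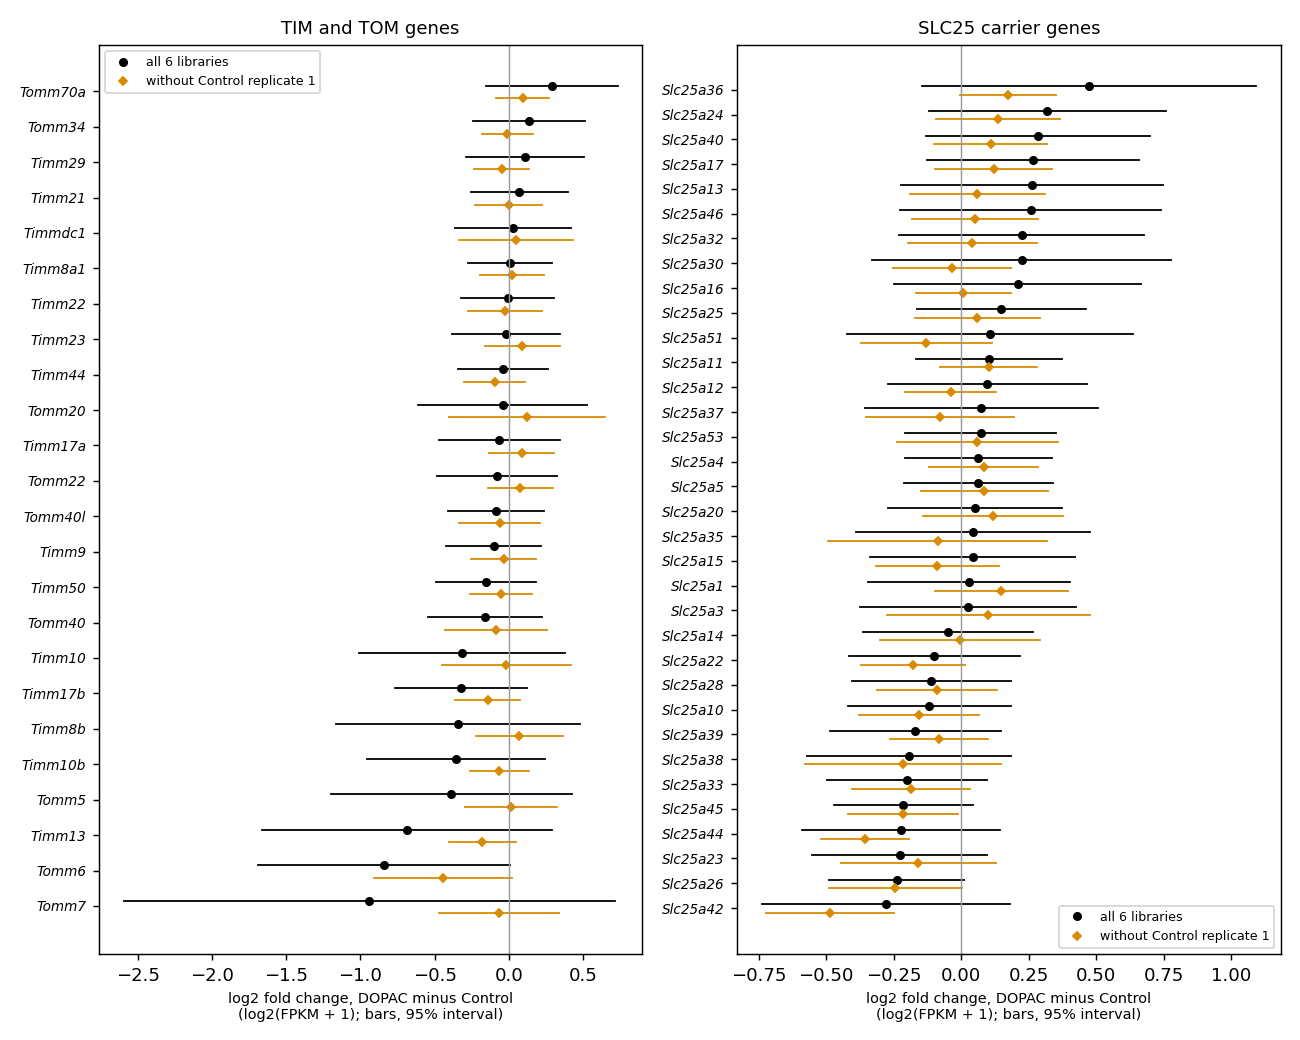
Log2 fold changes (DOPAC minus Control, on the log2(FPKM + 1) scale, horizontal axis) of the 24 import genes (left) and 34 of the 35 carrier genes (right), sorted by the value with all 6 libraries. Black circles are all 6 libraries, orange diamonds leave out Control replicate 1, and bars are 95% intervals of limma's model. Every black interval spans 0, and the large negative values of Tomm7, Tomm6, Timm13 and Tomm5 move toward 0 in orange.

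The import genes lay within a narrower span of levels than the carriers. FPKM are scaled by transcript length, so levels can be set beside each other, though only roughly. How FPKM were estimated is not stated, and Control replicate 1 deviated with gene length. The median level over the 6 libraries ran between 3.85 FPKM (Timm10b) and 59.9 FPKM (Timm23), with 16 genes from 10 to 100 FPKM and 8 from 2 to 10 FPKM. Neighbours in this order often changed places. Timm23 exceeded Tomm22, the next gene, in 4 of 6 libraries, and Timm50 exceeded Tomm34 in 3 of 6. The import genes together summed to 566, 510.2 and 529 FPKM in the DOPAC libraries and to 822, 496 and 581 FPKM in the Control libraries. Control replicate 1 alone lay above the rest, and Control replicates 2 and 3 lay on either side of the DOPAC values.

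**Figure D2:**
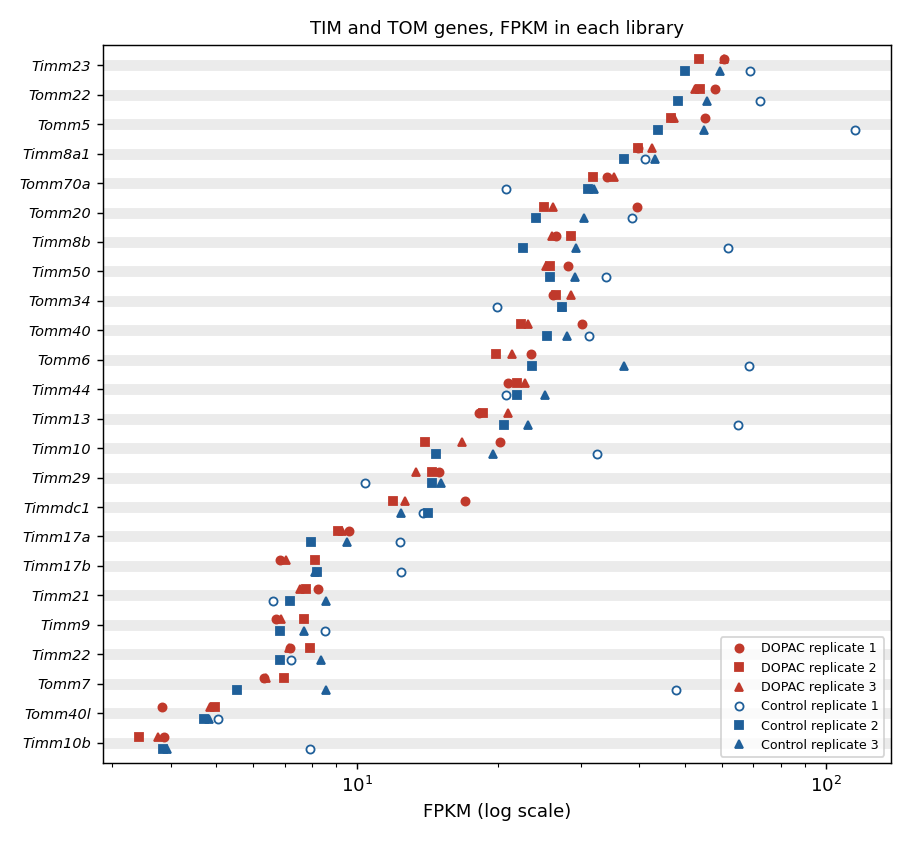
FPKM (log scale, horizontal axis) of the 24 import genes in each library, ordered by their median over the 6 libraries. Red marks are DOPAC and blue marks Control, marker shapes give the replicate, and the open circle is Control replicate 1. The open circle lies far to the right for Tomm7 (47.8 FPKM), Timm13 (64.8 FPKM) and Tomm6 (68.7 FPKM) and to the left for Tomm70a (20.7 FPKM).

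At the outer membrane the signs of the TOM receptors were mixed with all 6 libraries and all positive without Control replicate 1, with no receptor called. Tomm70a, a receptor for carrier precursors, measured 34.1, 31.8 and 35.4 FPKM with DOPAC and 20.7, 31.0 and 32.0 FPKM in the Control libraries. The groups overlapped by a narrow margin, and most of the difference lay in Control replicate 1. The log2 fold change was 0.29 (95% interval -0.16 to 0.73), the highest of the import genes, and 0.095 without that library (95% interval -0.08 to 0.27). Tomm20, the presequence receptor, had 39.5, 25.0 and 26.1 FPKM with DOPAC and 38.5, 24.0 and 30.4 FPKM in the Control libraries. Replicate 1 was the highest library of either group, and the log2 fold change was -0.040 (95% interval -0.61 to 0.53), or 0.12 without Control replicate 1. Its reads are uncertain, since the annotation holds 2 other genes near-identical to it. Tomm22, the central receptor and organiser of the complex, had a log2 fold change of -0.078, and 0.078 without Control replicate 1.

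The start regions of 3 TOM genes are shown because these members gave the highest and the most separated values of the complex and the presequence receptor itself. Each line is the 250 bases before the annotated RefSeq start (build GRCm38.p6), 5′ to 3′ on the strand of the gene. Capitals mark matches on either strand to 3 motifs, CCGGAAG (the core bound by ETS factors such as GABP), CACGTG (the E-box bound by MYC among others) and the motif of nuclear respiratory factor NRF-1 (GCGC, then any base, then TGCGC). Tomm20 lies at chr8:126945922-126946171 (minus strand), Tomm70a at chr16:57121464-57121713 (plus strand) and Tomm6 at chr17:47688387-47688636 (minus strand).
Tomm20: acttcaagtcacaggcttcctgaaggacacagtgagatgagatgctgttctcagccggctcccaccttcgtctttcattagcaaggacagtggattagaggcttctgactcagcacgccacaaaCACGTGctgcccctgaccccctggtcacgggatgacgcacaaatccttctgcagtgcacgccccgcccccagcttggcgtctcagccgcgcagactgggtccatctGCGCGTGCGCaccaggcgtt
Tomm70a: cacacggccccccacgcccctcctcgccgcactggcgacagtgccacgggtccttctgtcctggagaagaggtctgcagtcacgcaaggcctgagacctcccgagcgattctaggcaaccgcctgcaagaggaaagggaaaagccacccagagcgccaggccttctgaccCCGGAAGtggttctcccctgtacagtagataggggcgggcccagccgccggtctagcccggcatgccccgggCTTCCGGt
Tomm6: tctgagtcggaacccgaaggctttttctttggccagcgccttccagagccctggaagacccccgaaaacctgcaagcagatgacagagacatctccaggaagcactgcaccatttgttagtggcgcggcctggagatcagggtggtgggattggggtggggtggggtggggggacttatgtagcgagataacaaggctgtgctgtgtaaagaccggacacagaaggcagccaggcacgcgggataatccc
The Tomm20 window held an E-box 126 to 121 bases and an NRF-1 match 20 to 11 bases before the start. The Tomm70a window held ETS matches 80 to 74 and 8 to 2 bases before the start, and the Tomm6 window held none of the 3 motifs. The printed matches did not overlap each other.

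Start windows were found in RefSeq for 21 of the 24 import genes (23 windows) and for 27 of the 35 carriers (36 windows). The ETS core was in 9 of the 23 import windows (39.1%), against 15.6% of the 9876 windows of genes in the deposited table and 6.91% of all 32851 windows. The 8 import genes with it were Tomm22, Tomm34, Tomm70a, Timm8b, Timm10, Timm23, Timm29 and Timmdc1. Tomm34 entered with overlapping windows, each counted. By gene the core was in 8 of 21 import genes, against 1434 of 7818 listed genes with a window. Among carrier windows 5 of 36 (13.9%) held it, those of Slc25a3, Slc25a4, Slc25a17, Slc25a20 and Slc25a38. The E-box was in 3 import windows (13.0%) and 7 carrier windows (19.4%), against 8.88% of windows of listed genes. The NRF-1 motif was in 1 import window (4.35%) and 1 carrier window (2.78%), against 9.19%. These are matches of letters and not measured sites.

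The pore gene of the TOM complex and its 3 smallest subunits differed in how far Control replicate 1 moved them. Tomm40, the pore itself, measured 30.2, 22.4 and 23.2 FPKM with DOPAC and 31.3, 25.3 and 28.0 FPKM in the Control libraries, with a log2 fold change of -0.16 (95% interval -0.54 to 0.22) or -0.086 without Control replicate 1. The groups overlapped through DOPAC replicate 1. Tomm40l, its relative, measured 3.83 to 4.96 FPKM with DOPAC and 4.70 to 5.03 FPKM in the Control libraries, and shares 3304 bp of exon with Nr1i3 on the opposite strand, so its reads are uncertain.

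Tomm6, a small subunit that steadies the pore, had the smallest p of all 59 genes (unadjusted 0.0516, limma's adjusted p 0.801). It measured 23.5, 19.7 and 21.4 FPKM with DOPAC and 68.7, 23.6 and 37.1 FPKM in the Control libraries. All 3 DOPAC libraries lay below all 3 Control libraries, the nearest values being 23.5 and 23.6 FPKM, and the Control values themselves spread widely. The log2 fold change was -0.84 (95% interval -1.69 to 0.01), and -0.44 without Control replicate 1 (95% interval -0.91 to 0.02). Over all 16 alternative settings it stayed between -1.20 and -0.40. Its exons share 859 bp with Gm21981 on the same strand and 219 bp with Tomm6os on the opposite strand, and the reads of these genes cannot be told apart.

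Tomm7, a small subunit also known for holding PINK1 at the outer membrane, measured 6.31, 6.98 and 6.37 FPKM with DOPAC and 47.8, 5.53 and 8.57 FPKM in the Control libraries. The DOPAC values lay between Control replicates 2 and 3. Its log2 fold change of -0.94 (95% interval -2.60 to 0.71) was the lowest of the import genes and was -0.066 without Control replicate 1. Tomm5, the third small subunit, measured 55.3, 46.7 and 47.4 FPKM with DOPAC and 115, 43.8 and 55.0 FPKM in the Control libraries. Here too the other Control libraries lay on either side of most DOPAC values, and the log2 fold change was -0.39, or 0.016 without Control replicate 1.

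The 6 genes of the TIM23 presequence translocase had a median log2 fold change of -0.052, or -0.026 without Control replicate 1. Timm23, the channel protein, had 60.7, 53.5 and 60.5 FPKM with DOPAC and 68.8, 50.0 and 59.3 FPKM in the Control libraries, a log2 fold change of -0.019 (95% interval -0.38 to 0.34) or 0.092 without Control replicate 1. Control values lay on both sides of the DOPAC values. The annotation holds 5 genes near-identical to Timm23, so its reads are uncertain. Timm50, the receptor that hands precursors to the channel, had 28.1, 25.7 and 25.3 FPKM with DOPAC and 33.9, 25.7 and 29.1 FPKM in the Control libraries. The fitted log2 fold change was -0.15 (95% interval -0.49 to 0.19), and -0.052 without Control replicate 1.

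Timm17b, 1 of a pair of paralogous partners of the channel, measured 6.83, 8.13 and 7.03 FPKM with DOPAC and 12.4, 8.21 and 8.13 FPKM in the Control libraries. DOPAC replicates 1 and 3 lay below every Control library, while DOPAC replicate 2 was level with Control replicate 3. The Timm17b log2 fold change was -0.32 (95% interval -0.77 to 0.12), and -0.14 without Control replicate 1. The paralogue Timm17a had -0.065, or 0.089 without that library, with 12.4 FPKM in Control replicate 1 and 7.96 to 9.58 FPKM in the other 5 libraries. Timm44, the anchor of the import motor, had -0.040, or -0.096 without Control replicate 1. Timm21, which links TIM23 to TOM, measured 8.23, 7.79 and 7.53 FPKM with DOPAC and 6.61, 7.19 and 8.56 FPKM in the Control libraries. The groups overlapped, with a log2 fold change of 0.072 (95% interval -0.25 to 0.40) or -0.00062 without Control replicate 1.

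The TIM22 route and its chaperones gave small differences once Control replicate 1 was set aside. Timm22, the carrier insertase, measured 7.17, 7.94 and 7.16 FPKM with DOPAC and 7.21, 6.84 and 8.38 FPKM in the Control libraries, with a log2 fold change of -0.0062 (95% interval -0.32 to 0.31) or -0.027 without Control replicate 1. The DOPAC values lay inside the Control range. Timm29, a subunit of that complex described in human cells, had 14.97, 14.4 and 13.4 FPKM with DOPAC and 10.4, 14.5 and 15.1 FPKM in the Control libraries, with a log2 fold change of 0.11 (95% interval -0.29 to 0.50). Its positive sign came with the low value of Control replicate 1, and was -0.048 without it.

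Among the 6 small TIM chaperones 5 had negative values, with a median of -0.33, or -0.025 without Control replicate 1. Timm13, which works with the Timm8 proteins, measured 18.2, 18.5 and 20.9 FPKM with DOPAC and 64.8, 20.6 and 23.1 FPKM in the Control libraries. DOPAC replicate 3 overlapped Control replicate 2, and the log2 fold change was -0.69 (95% interval -1.66 to 0.29), or -0.18 (95% interval -0.40 to 0.05) without Control replicate 1. Timm10, which forms a ring with Timm9, measured 20.1, 13.9 and 16.7 FPKM with DOPAC and 32.5, 14.8 and 19.5 FPKM in the Control libraries. Its log2 fold change of -0.32 was -0.017 without Control replicate 1. Timm9 itself measured 6.71, 7.68 and 6.89 FPKM with DOPAC and 8.53, 6.85 and 7.71 FPKM in the Control libraries, a log2 fold change of -0.10 (95% interval -0.42 to 0.22) or -0.033 without Control replicate 1.

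Timm10b, a relative that docks the chaperones at TIM22, had 3.86, 3.42 and 3.75 FPKM with DOPAC and 7.94, 3.84 and 3.93 FPKM in the Control libraries, and a log2 fold change of -0.35 that was -0.063 without Control replicate 1. Timm8b had 26.0 to 28.6 FPKM with DOPAC and 22.5 to 61.7 FPKM in the Control libraries, with a log2 fold change of -0.34, or 0.070 without that library. Timm8a1, the mouse orthologue of the gene mutated in human deafness-dystonia syndrome, was the exception among the small TIM genes, at 39.6 to 42.6 FPKM with DOPAC and 37.1 to 43.1 FPKM in the Control libraries, a log2 fold change of 0.0085 (95% interval -0.28 to 0.29) or 0.023 without that library. The cochaperone gene Tomm34 measured 26.1, 26.5 and 28.6 FPKM with DOPAC and 19.9, 27.3 and 27.3 FPKM in the Control libraries. For Tomm34 the log2 fold change was 0.13, or -0.010 without Control replicate 1, and Timmdc1 had 0.029, or 0.049 without it.

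Gene length moved with the deviation of Control replicate 1. The import genes had a median summed exon length of 2862 bp (518 to 9777 bp), and the carriers of 4571 bp (1646 to 9594 bp). Control replicate 1 lay above all other 5 libraries in 15 of 24 import genes and 7 of 35 carriers, against 20.9% of all genes. It lay below them in 5 import genes and 18 carriers, against 58.6% of all genes. The 7 import genes of up to 1500 bp (Timm8a1, Timm8b, Timm10, Timm13, Tomm5, Tomm6 and Tomm7) had a median log2 difference of 1.20 between Control replicate 1 and the mean of the other 5 libraries, where all 1795 genes of that length had 0.44. Their median log2 fold change was -0.39, or -0.017 without that library. The 7 carriers over 6000 bp had a median log2 difference of -0.42, where all 3026 such genes had -0.60. Across members, length (log2) and this difference correlated at r = -0.63 in 24 import genes and -0.50 in 35 carriers, a description over genes that share the same 6 libraries.

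**Figure D3:**
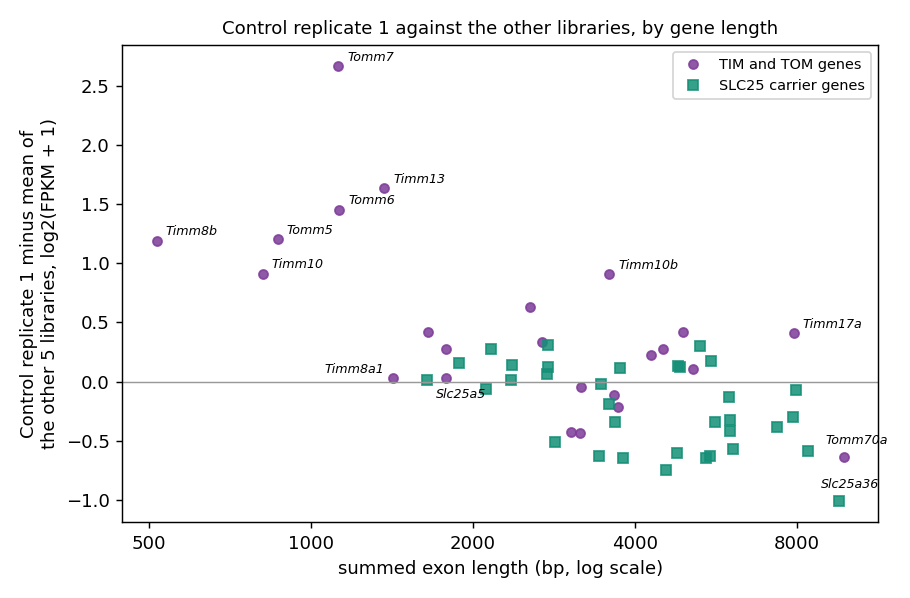
Difference between Control replicate 1 and the mean of the other 5 libraries on the log2(FPKM + 1) scale (vertical axis) against summed exon length in bp (log scale, horizontal axis), 1 point for each of the 24 import genes (purple circles) and 34 of the 35 carriers (green squares). Short import genes stand high, with Tomm7 at 2.67, while Timm8a1 lies at 0.028 and Slc25a36, among the longest, at -1.01.

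The carriers were dominated by the ADP/ATP and phosphate carriers, and these did not pass the test. Slc25a5, the ADP/ATP carrier of dividing cells, measured 486, 497 and 497 FPKM with DOPAC and 487, 425 and 509 FPKM in the Control libraries. The DOPAC values lay inside the Control range. Of the summed FPKM of the carriers taken by symbol, Slc25a5 alone made up 52.8%, 55.0% and 54.4% in the DOPAC libraries. In the Control libraries it made up 55.5%, 51.9% and 54.3%. Its log2 fold change was 0.063 (95% interval -0.21 to 0.34), and 1 near-identical gene, Gm5560, makes its reads uncertain. Slc25a4, the paralogue best known from muscle and heart, measured 95.8, 99.7 and 101 FPKM with DOPAC and 97.3, 87.0 and 99.9 FPKM in the Control libraries, a log2 fold change of 0.064 (95% interval -0.21 to 0.34). Slc25a3, the phosphate carrier, measured 93.3, 66.6 and 71.0 FPKM with DOPAC and 83.4, 67.3 and 74.8 FPKM in the Control libraries, with the highest values in replicate 1 of each group and a log2 fold change of 0.024 (95% interval -0.38 to 0.42) or 0.10 without Control replicate 1. After these 3 genes the next with an Slc25a symbol, Slc25a17, had a median of 24.0 FPKM over the 6 libraries. By that median 1 carrier lay above 100 FPKM, 9 between 10 and 100 FPKM, 18 between 2 and 10 FPKM and 7 under 2 FPKM. Transporters with other symbols are not in this order or in the shares. One of them, Ucp2, measured 47.1 to 51.6 FPKM with DOPAC and 51.5 to 55.5 FPKM in the Control libraries, above Slc25a17.

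Windows before the start of both ADP/ATP carrier genes are shown because their ratio was the steadiest of the 10 ratios computed, and that of Slc25a36 because it had the highest log2 fold change of the carriers. They were drawn and marked as for the TOM genes. Slc25a4 lies at chr8:46211063-46211312 (minus strand), Slc25a5 at chrX:36795347-36795596 (plus strand) and Slc25a36 at chr9:97111042-97111291 (minus strand).
Slc25a4: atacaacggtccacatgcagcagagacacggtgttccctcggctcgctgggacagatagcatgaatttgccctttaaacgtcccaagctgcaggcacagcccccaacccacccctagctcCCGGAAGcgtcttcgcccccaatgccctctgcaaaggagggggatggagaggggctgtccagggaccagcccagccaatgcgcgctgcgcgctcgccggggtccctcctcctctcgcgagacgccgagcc
Slc25a5: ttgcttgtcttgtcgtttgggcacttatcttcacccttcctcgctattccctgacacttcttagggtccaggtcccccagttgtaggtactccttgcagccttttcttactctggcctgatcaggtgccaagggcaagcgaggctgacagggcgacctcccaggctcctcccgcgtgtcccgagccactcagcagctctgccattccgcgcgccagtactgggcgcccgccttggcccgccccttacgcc
Slc25a36: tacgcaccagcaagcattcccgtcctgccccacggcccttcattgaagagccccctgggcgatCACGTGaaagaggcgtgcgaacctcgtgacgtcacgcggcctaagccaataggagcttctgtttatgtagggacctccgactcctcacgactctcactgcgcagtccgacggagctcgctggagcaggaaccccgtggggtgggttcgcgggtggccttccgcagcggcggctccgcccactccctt
The Slc25a4 window held the ETS core 130 to 124 bases before the start and the Slc25a36 window an E-box 187 to 182 bases before it. The Slc25a5 window held none of the 3 motifs.

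**Figure D4:**
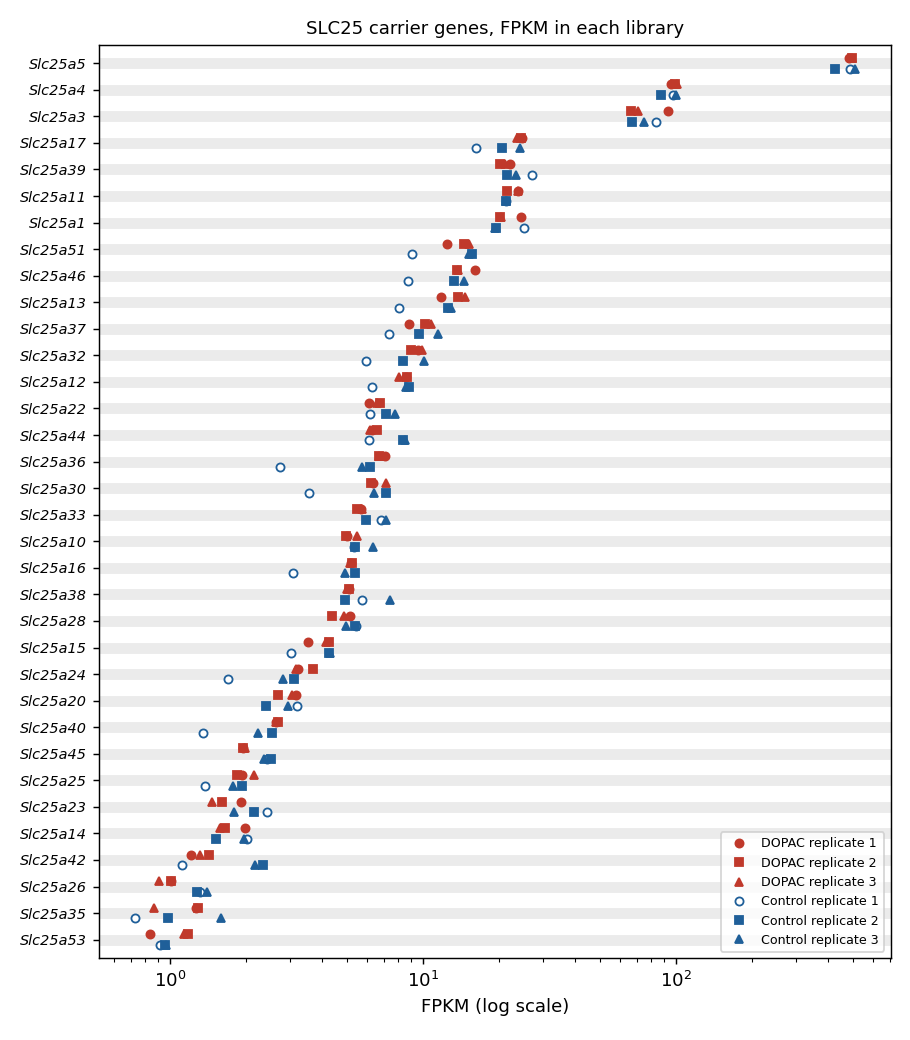
FPKM (log scale, horizontal axis) of 34 of the 35 SLC25 genes in each library, ordered by their median over the 6 libraries. Red marks are DOPAC and blue marks Control, marker shapes give the replicate, and the open circle is Control replicate 1. Slc25a5 lies between 425 and 509 FPKM, far to the right of the rest, and the open circle lies to the left for many genes.

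Carriers of nucleotides and cofactors held the widest differences in either direction. Slc25a36, a pyrimidine nucleotide carrier, measured 7.12, 6.69 and 6.69 FPKM with DOPAC and 2.72, 6.16 and 5.74 FPKM in the Control libraries. All 3 DOPAC libraries lay above all 3 Control libraries, by a small step over replicates 2 and 3. The log2 fold change was 0.47 (95% interval -0.14 to 1.09, limma's adjusted p 0.801), and 0.17 without Control replicate 1. The annotation holds 1 near-identical gene, Gm13217. Its counterpart Slc25a33, which also carries pyrimidine nucleotides, had 5.71, 5.51 and 5.73 FPKM with DOPAC and 6.82, 5.99 and 7.18 FPKM in the Control libraries. The DOPAC libraries all lay below the Control libraries, with a log2 fold change of -0.20 (95% interval -0.50 to 0.09), or -0.19 without Control replicate 1.

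Slc25a26, the carrier of S-adenosylmethionine, the methyl donor, had a low level of 1.01, 1.01 and 0.910 FPKM with DOPAC and 1.31, 1.28 and 1.40 FPKM in the Control libraries, without overlap. Its log2 fold change was -0.24 (95% interval -0.49 to 0.01), the same without Control replicate 1. Slc25a42, a coenzyme A carrier, had 1.21, 1.43 and 1.32 FPKM with DOPAC and 1.12, 2.33 and 2.16 FPKM in the Control libraries. The groups overlapped only through Control replicate 1, and the log2 fold change of -0.28 (95% interval -0.74 to 0.18) was -0.49 without it (95% interval -0.72 to -0.25, limma's adjusted p 0.295).

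Slc25a32, linked to folate and FAD transport, measured 9.58, 9.01 and 9.93 FPKM with DOPAC and 5.98, 8.35 and 10.1 FPKM in the Control libraries, a log2 fold change of 0.22 (95% interval -0.23 to 0.68) or 0.041 without Control replicate 1. Slc25a51, an NAD carrier, had 12.4, 14.6 and 15.3 FPKM with DOPAC and 9.07, 15.7 and 15.3 FPKM in the Control libraries, a log2 fold change of 0.11 (95% interval -0.42 to 0.64) or -0.13 without Control replicate 1. In both genes the groups overlapped and Control replicate 1 was the lowest library. The peroxisomal carrier Slc25a17 measured 24.8, 24.6 and 23.7 FPKM with DOPAC and 16.2, 20.5 and 24.3 FPKM in the Control libraries, a log2 fold change of 0.27 (95% interval -0.13 to 0.66) or 0.12 without Control replicate 1. Slc25a16 had a log2 fold change of 0.21, or 0.0080 without Control replicate 1.

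Among amino acid carriers, the largest separation appeared once Control replicate 1 was left out. Slc25a44, a carrier of branched-chain amino acids, measured 6.29, 6.58 and 6.21 FPKM with DOPAC and 6.12, 8.35 and 8.49 FPKM in the Control libraries. Control replicate 1 lay beside the DOPAC libraries while Control replicates 2 and 3 lay above them. The log2 fold change was -0.22 (95% interval -0.59 to 0.14) and -0.36 without Control replicate 1 (95% interval -0.52 to -0.19), where limma's adjusted p of 0.295, the same as for Slc25a42, was the lowest of any member under any setting. In that fit 3 of the 59 members had an unadjusted p under 0.05, all lower with DOPAC (Slc25a42, Slc25a44 and Slc25a45), where the share of all genes was 14.5%.

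The aspartate-glutamate carriers of the malate-aspartate shuttle did not pass the test. Slc25a13 measured 11.8, 13.8 and 14.7 FPKM with DOPAC and 8.04, 12.6 and 13.0 FPKM in the Control libraries, a log2 fold change of 0.26 (95% interval -0.22 to 0.75) or 0.059 without Control replicate 1. Slc25a12 measured 8.60, 8.66 and 8.06 FPKM with DOPAC and 6.31, 8.79 and 8.60 FPKM in the Control libraries, a log2 fold change of 0.097 (95% interval -0.27 to 0.47) or -0.039 without Control replicate 1. Groups overlapped for these carriers, and Control replicate 1 was lowest. Slc25a38, a glycine carrier used in haem synthesis, had 5.10, 5.11 and 5.04 FPKM with DOPAC and 5.74, 4.95 and 7.40 FPKM in the Control libraries, a log2 fold change of -0.19 (95% interval -0.57 to 0.18). The glutamate carrier Slc25a22 had -0.10 and the ornithine carrier Slc25a15 0.043, or -0.18 and -0.089 without Control replicate 1.

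The carriers of organic acids did not pass the test, and their intervals reached to either side of 0. Slc25a1, the citrate carrier that feeds lipid synthesis, measured 24.5, 20.3 and 20.3 FPKM with DOPAC and 25.2, 19.4 and 19.4 FPKM in the Control libraries, a log2 fold change of 0.029 (95% interval -0.35 to 0.40) or 0.15 without Control replicate 1. Replicate 1 was the highest library of each group. Slc25a11, the oxoglutarate-malate carrier, measured 23.7, 21.5 and 23.8 FPKM with DOPAC and 21.3, 21.3 and 21.4 FPKM in the Control libraries. Its groups did not overlap, although the step between the nearest libraries was far smaller than the spread among the DOPAC libraries, and the log2 fold change was 0.10 (95% interval -0.17 to 0.37). The dicarboxylate carrier Slc25a10 had -0.12 (95% interval -0.42 to 0.18), and the carnitine-acylcarnitine carrier Slc25a20 had 0.052 (95% interval -0.27 to 0.37) or 0.12 without Control replicate 1.

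Carriers tied to iron and glutathione overlapped between the groups, apart from Slc25a40. Slc25a37, mitoferrin of red cell precursors, measured 8.85, 10.2 and 10.8 FPKM with DOPAC and 7.36, 9.65 and 11.5 FPKM in the Control libraries, a log2 fold change of 0.075 (95% interval -0.36 to 0.51) or -0.080 without Control replicate 1. Slc25a28, the other mitoferrin, had -0.11. Slc25a39, a carrier for glutathione, measured 22.0, 20.2 and 21.1 FPKM with DOPAC and 27.0, 21.5 and 23.3 FPKM in the Control libraries. DOPAC replicate 1 overlapped Control replicate 2, and the log2 fold change was -0.17 (95% interval -0.48 to 0.15) or -0.082 without Control replicate 1. Its paralogue Slc25a40 measured 2.64, 2.67 and 2.62 FPKM with DOPAC and 1.35, 2.54 and 2.22 FPKM in the Control libraries, a log2 fold change of 0.28 (95% interval -0.13 to 0.70) or 0.11 without that library.

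Of the remaining carriers, Slc25a46, an outer membrane protein tied to fission, measured 16.1, 13.6 and 13.8 FPKM with DOPAC and 8.73, 13.3 and 14.6 FPKM in the Control libraries, a log2 fold change of 0.26 (95% interval -0.23 to 0.74) or 0.052 without Control replicate 1. Slc25a24, a calcium-regulated ATP-Mg/phosphate carrier, measured 3.21, 3.69 and 3.15 FPKM with DOPAC and 1.70, 3.10 and 2.81 FPKM in the Control libraries, a log2 fold change of 0.32 (95% interval -0.12 to 0.76) or 0.14 without Control replicate 1. All DOPAC libraries lay above the Control libraries, narrowly so over Control replicates 2 and 3. Its relative Slc25a25 had 0.15, or 0.060 without Control replicate 1, and Slc25a23 had -0.23. Slc25a45 measured 1.94, 1.95 and 1.99 FPKM with DOPAC and 2.43, 2.51 and 2.36 FPKM in the Control libraries, a difference of little size (-0.21, 95% interval -0.47 to 0.04) without overlap. Slc25a14, Slc25a30, Slc25a35 and Slc25a53 had log2 fold changes of -0.050, 0.22, 0.043 and 0.071, all with overlapping groups. Without Control replicate 1 the value of Slc25a14 was -0.0037, and the signs of Slc25a30 (-0.033) and Slc25a35 (-0.087) turned.

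Groups did not overlap in 1 of the 24 import genes and 7 of the 35 carriers, where 17.2% of all genes were separated in either direction. The import gene was lower with DOPAC (Tomm6). Of the carriers 4 were higher (Slc25a11, Slc25a24, Slc25a36 and Slc25a40) and 3 lower (Slc25a26, Slc25a33 and Slc25a45). Over all genes 12.4% were separated with DOPAC higher and 4.8% with DOPAC lower. Without Control replicate 1 the import genes again numbered 1, and the carriers 5 higher and 7 lower, where the shares of all genes were 15.3% higher and 21.5% lower (36.8% in all).

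Ratios between paralogues and partners within a library do not depend on the total of that library, but can still follow gene length. Slc25a5 over Slc25a4 was 5.07, 4.98 and 4.92 in the DOPAC libraries and 5.002, 4.88 and 5.10 in the Control libraries, and thus also held in Control replicate 1. Slc25a36 over Slc25a33 was 1.25, 1.21 and 1.17 with DOPAC and 0.398, 1.03 and 0.799 in the Control libraries. Slc25a39 over Slc25a40 was 8.35, 7.55 and 8.03 with DOPAC and 19.9, 8.46 and 10.5 in the Control libraries. For Slc25a39 over Slc25a40 the groups did not overlap, as for Slc25a40 alone. The exact two-sided permutation p was 0.1, the smallest that 3 against 3 libraries allow. It was 0.5 after Benjamini-Hochberg adjustment over the 10 ratios computed, the pyrimidine pair among them. The pyrimidine pair was chosen with its members' values known. Slc25a36 was higher and Slc25a33 lower in every DOPAC library than in any Control library. Separation of their ratio was thus fixed beforehand, and its permutation p adds nothing. Summed exon lengths were 9594 bp for Slc25a36 and 1887 bp for Slc25a33, and 2756 bp for Slc25a39 and 8386 bp for Slc25a40. The part of the length trend in these ratios was not tested.

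Timm17a over Timm17b was 1.40, 1.12 and 1.32 with DOPAC and 0.998, 0.969 and 1.17 in the Control libraries, which overlapped (exact permutation p = 0.2, adjusted 0.667). Timm8b over Timm8a1 was 0.670, 0.719 and 0.611 with DOPAC and 1.498, 0.608 and 0.679 in the Control libraries, with Control replicate 1 alone above 1. Tomm20 over Tomm70a was 1.16, 0.787 and 0.739 with DOPAC and 1.86, 0.775 and 0.951 in the Control libraries, where replicate 1 of each group was its highest. The other 4 ratios (Slc25a13 over Slc25a12, Slc25a37 over Slc25a28, Timm10 over Timm9 and Tomm40 over Tomm40l) had exact permutation p-values between 0.3 and 0.9.

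**Figure D5:**
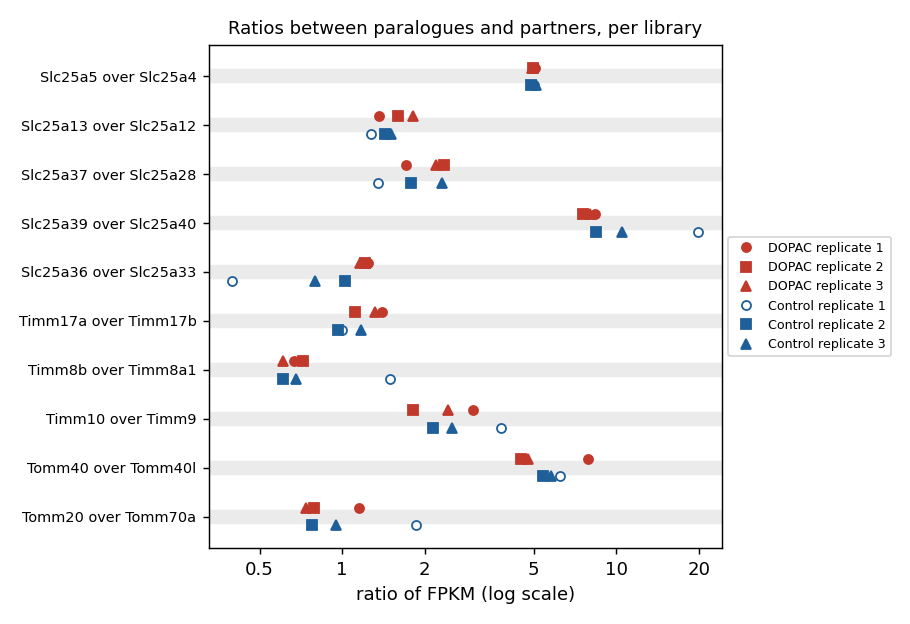
Ratio of FPKM (log scale, horizontal axis) for 10 pairs of paralogues or partners in each library, red for DOPAC and blue for Control, with marker shapes for the replicate and an open circle for Control replicate 1. Slc25a5 over Slc25a4 stays between 4.88 and 5.10 in all 6 libraries, while Slc25a39 over Slc25a40 and Slc25a36 over Slc25a33 put the open circle far from the rest.

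Import genes outside the symbol rule did not pass the test either. Of 23 genes for the motor, sorting, disulfide relay and presequence processing 22 were measured, 10 with positive and 12 with negative values, a median of -0.027 (0.0031 without Control replicate 1), and 0 passed limma's test. Hspa9, the motor chaperone of the matrix, measured 258, 225 and 233 FPKM with DOPAC and 173, 219 and 221 FPKM in the Control libraries, a log2 fold change of 0.23 (95% interval -0.11 to 0.57) or 0.12 without Control replicate 1. Mipep, a presequence peptidase, had 0.19, or 0.11 without that library. Mtch1, an outer membrane insertase, had -0.18, or -0.12 without it, and Dnajc15, a J-protein of the motor, had -0.26, or -0.037 without it. Romo1, a short gene of the TIM23 complex, was at 6.67, 4.28 and 4.88 FPKM with DOPAC and 47.3, 4.41 and 5.95 FPKM in the Control libraries, the pattern seen in Tomm7 (named after its values were seen).

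Of 22 transporters outside the SLC25 symbol 18 were measured, 11 with positive and 7 with negative values, with a median of 0.078 (0.0044 without Control replicate 1), and 0 passed. Mcub, which restrains the calcium uniporter, measured 2.36, 2.55 and 2.64 FPKM with DOPAC and 1.83, 1.91 and 2.01 FPKM in the Control libraries, a log2 fold change of 0.27 (95% interval 0.002 to 0.54). Vdac1, the outer membrane channel, measured 142, 131 and 141 FPKM with DOPAC and 106, 117 and 121 FPKM in the Control libraries. Both were separated between the groups. Smdt1, the small uniporter subunit EMRE, measured 14.6, 11.5 and 10.7 FPKM with DOPAC and 27.5, 14.99 and 16.4 FPKM in the Control libraries, a log2 fold change of -0.60 (95% interval -1.19 to -0.008) or -0.34 without Control replicate 1. These list genes had limma's adjusted p of 0.801 at the lowest.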

How the data were processed

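The authors deposited 1 FPKM column for each library, per the file headers, with a log2 fold change of their own (in all 11175 rows within 1e-06 of the difference between group means of log2(FPKM + 1)) and p-values and adjusted p-values from a test the headers do not name. The submitters' processing notes name cutadapt 1.9, HISAT2 2.2.1 and the build mm10. Per the labels' protocols, cDNA was made with SMART-Seq HT and libraries with Nextera XT, which do not mark strand, so reads of overlapping or antisense genes cannot be assigned. How FPKM were estimated, on which annotation and after which filter is not stated in the sources used. FPKM hold no read counts, so depth and counting intervals are unknown. One title misspells the treatment of DOPAC replicate 1, and groups and numbers came from the library names.

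From the FPKM, log2(FPKM + 1) was computed (fold changes are on that scale and understate low genes), and 288 genes with a mean under 1 FPKM were left out. R 4.3.3 with limma 3.58.1 fitted DOPAC against Control with a mean-variance trend over 10887 genes, after a test on simulated data, with Benjamini-Hochberg adjustment over all of them. Members, lists and named genes were chosen with earlier results of these data known. Full values are given for the 4 import genes and 4 carriers with the smallest p in each direction at 5 FPKM or more, for 18 chosen members and for further members where the text turns on them. The 10 ratios were compared by exact permutation tests. Exon lengths and overlaps came from GENCODE M21 on GRCm38. Near-identical genes shared at least 150 bp at 97% identity by blastn 2.17.0. Start windows came from RefSeq. Start windows for 11 members were not used here. Values of 1 carrier are not reported singly here, and figures leave it out. Figures used Python 3.11.15 and matplotlib 3.10.9.

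Both groups share replicate numbers. Libraries of the same number deviated together from their group means (r across genes 0.34, 0.16 and 0.28, each above 0.1), while crossed numbers gave up to 0.24 and no label names a common animal or day. The matched value of 0.16 for replicate 2 lay below both crossings of replicates 2 and 3. These were 0.19 (DOPAC replicate 2 with Control replicate 3) and 0.24 (DOPAC replicate 3 with Control replicate 2). The check therefore cannot settle whether the numbers pair the libraries. All values printed come from unpaired fits and unpaired permutations unless a sentence says otherwise. A fit with the replicate block, other pseudocounts, filters, scalings, weights and leaving out each library were alternatives.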

Additional observations from a re-analysis of the deposited data

How the results depend on the processing

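Calls of members stayed at 0 under all 16 alternatives, the replicate block among them, which also left 0 genes called and changed no call. Over all genes the count was 0, but 2 with limma's array weights and 0 to 2 when each library was left out, the 2 coming without Control replicate 1. At an unadjusted p under 0.05 limma gave 456 genes, and 1574 without that library. The import median was negative throughout, between -0.20 (without Control replicate 2) and -0.0035 (array weights). With the length trend removed it was -0.18, further from 0 than the -0.081 of the main fit, where all genes had -0.011. The carrier median was -0.050 with the length trend removed, and -0.033 to 0.10 when each library was left out, the lowest without Control replicate 1.

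Of 31 named members 13 changed sign somewhere, in 34 of 495 values under the alternatives. With equal library medians Slc25a1 had -0.030 and Slc25a3 -0.035. With the length trend removed Slc25a3 had -0.091, Slc25a12 -0.050, Slc25a37 -0.050, Slc25a51 -0.0076 and Timm23 0.010. With array weights Slc25a12 had -0.031, Slc25a51 -0.050, Timm22 0.058, Timm23 0.10, Timm29 -0.033, Timm9 0.024 and Tomm20 0.031. Leaving out each library gave -0.058 to 0.15 for Slc25a1, -0.12 to 0.12 for Slc25a3, -0.013 to 0.12 for Slc25a5, -0.039 to 0.17 for Slc25a12, -0.080 to 0.21 for Slc25a37 and -0.13 to 0.23 for Slc25a51. It gave -0.00062 to 0.16 for Timm21, -0.060 to 0.069 for Timm22, -0.13 to 0.092 for Timm23, -0.048 to 0.20 for Timm29, -0.24 to 0.12 for Tomm20 and -0.010 to 0.21 for Tomm34. The causes were not tested.

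The spread of 3 libraries a group limits what these data show. The array weight fit stopped before it converged.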
